A study of Mus musculus with 3 samples.

Results

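The genes described here encode the microtubule and actin cytoskeleton and the motor proteins that run on it, in beta, alpha and delta cells of mouse pancreatic islets. They were chosen by gene name alone: tubulins and gamma-tubulin complex proteins (names starting with Tuba, Tubb or Tubg), kinesins (Kif followed by a digit, Klc), dynein and dynactin (Dync, Dynl, Dctn), and actin and myosin (Myo followed by a digit, Myl, Arpc, Capz). The authors' tables list 73 such genes of 8237 in all, of which 71 were listed in beta cells, 3 in alpha cells and 2 in delta cells. The mice were NOD/ShiLtJ, a strain that develops autoimmune diabetes spontaneously, all 5 weeks old. The control was 1 mouse with floxed alleles of IRE1α, given as IRE1[alpha]fl/fl. The knockout group was 2 mice given as IRE1[alpha][beta]-/-, a beta-cell knockout of IRE1α, the kinase and RNase that senses unfolded protein in the endoplasmic reticulum. Every mouse, the control included, had received tamoxifen (10 mg per ml), which switches on an inducible Cre recombinase; the promoter that drives Cre is not given in the sources used here. Islets were cultured overnight and dissociated before RNA was captured in droplets with unique molecular identifiers (UMIs), each of which stands for 1 captured transcript.

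Microtubules are hollow polymers of alpha- and beta-tubulin. In the beta cell they carry insulin granules, with kinesins moving cargo towards the plus end and dynein, helped by dynactin, towards the minus end, while a web of actin filaments under the plasma membrane, worked by myosins and branched by the Arp2/3 complex, holds granules back or hands them to the exocytic sites. Islet microtubules also set how many granules stay near the membrane between glucose stimuli.

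All values are mean UMIs per cell. The beta-cell table covers 829 control cells and 815 knockout cells, the latter pooled from both knockout mice. The alpha-cell table covers 142 control cells and, by column, 304 and 177 knockout cells; the delta-cell table covers 101, 138 and 78. The columns of the knockout mice were not matched to a particular mouse and are called the first and the second. Ratios are knockout over control, and brackets hold the exact 95% interval of a ratio, which covers counting error only. With 1 control mouse no difference could be set against the spread between control mice, so a fold of at least 1.5 stands in for a test and no p-value was computed. Each table lists only genes that passed the authors' own test, so a gene that is not listed was not analysed here. Among the defining markers, Ins1, Ins2 and Iapp were abundant in beta cells (13373 UMIs of Ins2 per control cell); none of the 8 alpha-cell markers searched was listed in the alpha-cell table, where Ppy stood at 427 UMIs per control cell, and only Rbp4 of the delta-cell markers was listed in delta cells, so these labels rest on the authors' assignment.

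The cytoskeleton and motor genes of beta cells mostly had more UMIs per cell in the knockout, as did the table as a whole. Of the 71 genes, 67 were higher and 4 lower (Tubb2a, Myl6, Dctn3 and Myo3a), beside 95.0% and 5.04% of all 8193 listed genes. By a fold of at least 1.5, 26 were higher (36.6%, against 45.7% of all listed genes) and 2 lower (Tubb2a and Myo3a, against 2.47%), Myo3a on 6 UMIs in control and 0 in knockout cells. With every ratio divided by the table median, 7 were higher by that fold and 3 lower (Tubb2a, Myl6 and Myo3a), against 16.0% and 4.19% of listed genes. The median log2 ratio was 0.43, below the 0.54 of all listed genes, and 44 of the 71 lay under that table median. The interval, which covers counting error only, lay above 1 for 64 genes, included 1 for 4 and lay below 1 for 3.

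**Figure D1:**
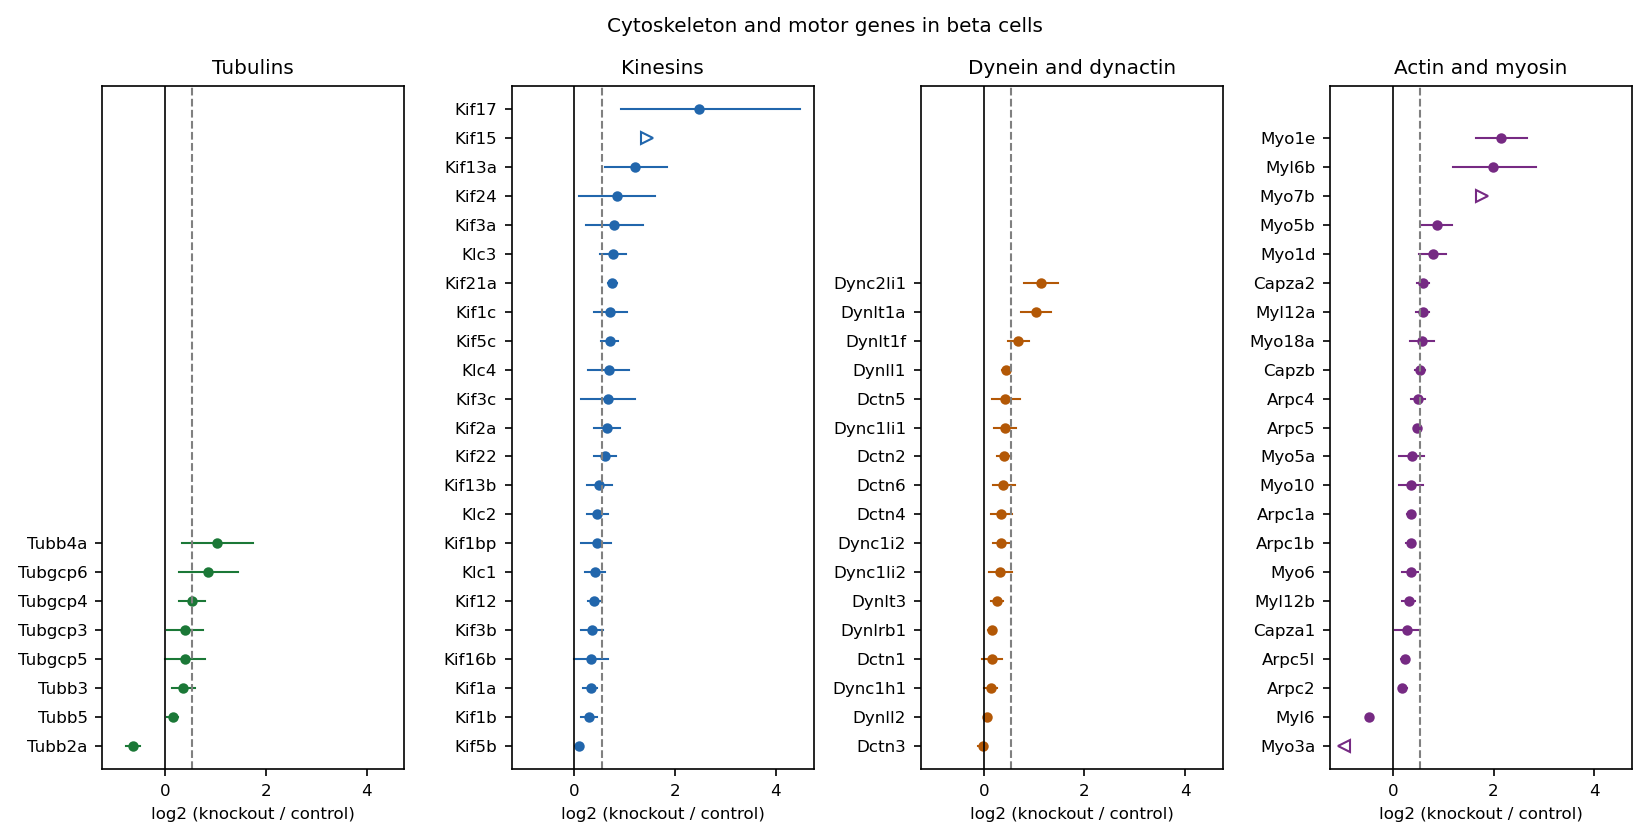
Each point is the log2 ratio of knockout over control mean UMIs per beta cell for 1 gene, in 4 groups (a member not reported here is not drawn), with a line for its exact 95% interval (counting error only); open triangles are bounds for genes with no UMI in one genotype, the solid line is equality and the dashed line the median of all listed genes (0.54). Tubb2a and Myl6 sit left of equality with intervals that do not reach it, and most dynein and dynactin genes sit between both lines.

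Within the table, the ratio went with the level of the gene. Across the 68 members with UMIs in both genotypes, log2 ratio and log2 control level had a Spearman correlation of -0.70 and a Pearson correlation of -0.75, as a description of genes that share the same cells and libraries. The control level is also the denominator of the ratio, so counting error alone can make such a correlation negative. Members under 0.1 UMIs per control cell had a median ratio of 2.17 (12 genes), those from 0.1 to 0.3 one of 1.56 (17), those from 0.3 to 1 one of 1.29 (21), those from 1 to 3 one of 1.27 (17), and the 4 above 3 one of 1.05. All listed genes in the same ranges had medians of 2.37, 1.5, 1.32, 1.20 and 1.12. Since only genes past the authors' threshold are listed (largest q-value 0.00998 in the authors' deposited table), genes with few UMIs appear in the table when their fold is large. The members lay close to listed genes of like level.

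**Figure D2:**
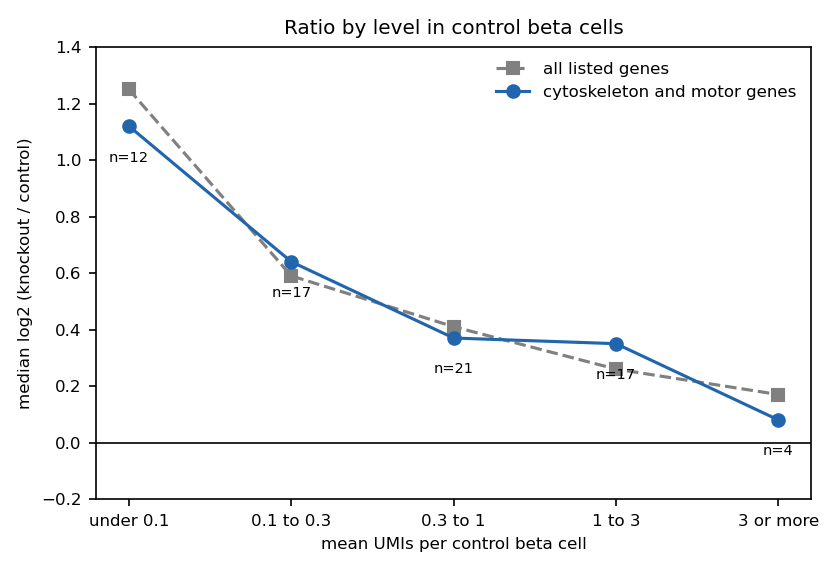
Median log2 ratio of knockout over control in beta cells (y axis) by mean UMIs per control cell (x axis), for the members (circles, with their number) and for all listed genes (squares). Both lines fall together, from 1.12 and 1.25 in the rarest genes to 0.08 and 0.17 in the most abundant.

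The tubulins are the building blocks of the microtubule, and the gamma-tubulin complex proteins seed new ones. Tubb2a, a beta-tubulin, was the lowest of all members measured in both genotypes and had on average 1.32 UMIs in control cells and 0.852 in knockout cells (ratio 0.644 [0.584 to 0.708]). Of all listed beta-cell genes, 2.21% had a lower ratio. The q-value of Tubb2a was 9.21e-03 in the authors' deposited table, close to the largest listed there (0.00998). Tubb5, the broadly expressed beta-tubulin, stood at 1.77 and 1.96, a ratio of 1.11 [1.03 to 1.19]. Tubb3, typical of neurons, stood at 0.338 and 0.432 (1.28 [1.09 to 1.5]), and Tubb4a, rare here, at 0.0326 and 0.0663 (2.03 [1.26 to 3.36]). The 4 beta-tubulins thus split between lower and higher. Their summed UMIs were 3.46 and 3.31 per cell, a ratio of 0.955 [0.906 to 1.01], and without Tubb2a 2.14 and 2.46, a ratio of 1.15 [1.08 to 1.22]. No alpha-tubulin of the 8 annotated was listed in beta cells. Tubgcp3, Tubgcp4, Tubgcp5 and Tubgcp6 lay at ratios from 1.31 to 1.81. Tubb2a shares 51.4% of its 30-base words with its neighbour copy Tubb2b, but 20.3% in the last 300 bases of the transcript, so counting could have split some of its reads.

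In alpha and delta cells the tubulins that were listed were lower in every knockout column. Tuba4a, an alpha-tubulin that carries no C-terminal tyrosine of its own, had 2.84 UMIs per control alpha cell, 1.82 in the first knockout column and 1.69 in the second. Its ratios were 0.641 [0.563 to 0.731] and 0.597 [0.513 to 0.695], and both knockout values lay below the control. In delta cells it had 3.51 UMIs per control cell and 2.01 and 2.10 in the knockout columns, ratios of 0.571 [0.486 to 0.670] and 0.598 [0.494 to 0.722]. Tuba4a was the only member listed in both of these tables, which share the control mouse, and its ratios were of like size as deposited; relative to the table medians its log2 ratio was -0.40 in alpha and -1.19 in delta cells.

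Tubb5 in alpha cells went from 3.97 UMIs per control cell to 2.62 and 2.45, a mean of 2.53 ± 0.115 (SD, n = 2) and ratios of 0.658 [0.590 to 0.735] and 0.617 [0.543 to 0.701]. That is opposite in direction to its beta-cell value as deposited, and the difference between the cell types was not tested. The beta-cell direction also depended on the scaling: its log2 ratio of 0.15 became -0.40 relative to the table median and -0.12 when cells were scaled to all listed UMIs other than those of Ins1, Ins2 and Iapp. Relative to the alpha-cell table median, the alpha-cell value was -0.36. Control alpha cells held 2.24 times as many Tubb5 UMIs as control beta cells [2.03 to 2.48]. These UMIs per cell were not scaled for depth between the cell types, and the interval covers counting error only.

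Tubb4b, a beta-tubulin common in cilia and many other tissues, went in delta cells from 3.19 UMIs per control cell to 1.48 and 2.13, ratios of 0.464 [0.387 to 0.554] and 0.668 [0.550 to 0.808]. Both knockout values were lower, but they differed from each other, and without the first column its ratio missed the fold of 1.5. By the mean of both columns, 2 of the 3 members in alpha cells and both members in delta cells were at least 1.5-fold lower, against 30.1% and 16.0% of listed genes. Relative to the table medians, 0 of the 3 in alpha cells passed that fold (Tuba4a at -0.40 and Tubb5 at -0.36 on the log2 scale) and both in delta cells did, against 14.0% and 18.2% of listed genes. In both knockout columns, 51.1% and 17.7% of listed genes were lower. The listed genes as a whole had a median log2 ratio of -0.29 in alpha and 0.42 in delta cells, so Tuba4a and Tubb4b, at -0.77 and -0.82, went against most of the delta-cell table, of which 81.4% was higher.

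Other markers moved in the same cells, and their part in these values was not tested. In delta cells the 3 listed alpha-cell markers summed to 14.1 UMIs per control cell and to 165 and 67.4 in the knockout columns, of which Gcg made up 10.0, 159 and 63.5, Ttr was also higher and Gc was lower (3.12, 1.41 and 1.37), while the beta-cell marker Iapp stood at 1825, 797 and 698. The delta-cell marker Rbp4 stood at 137, 84.2 and 69.1, the 3 listed duct markers summed to 34.7, 17.7 and 19.9, with Cldn7 and Epcam lower, and the immune marker C1qa stood at 1.04, 0.833 and 0.346. In alpha cells the 3 listed beta-cell markers summed to 434, 251 and 304, and the 2 listed delta-cell markers to 52.5, 19.5 and 51.9. The 2 listed duct markers there, Cldn7 and Epcam, summed to 7.24, 4.46 and 5.90, both lower.

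**Figure D3:**
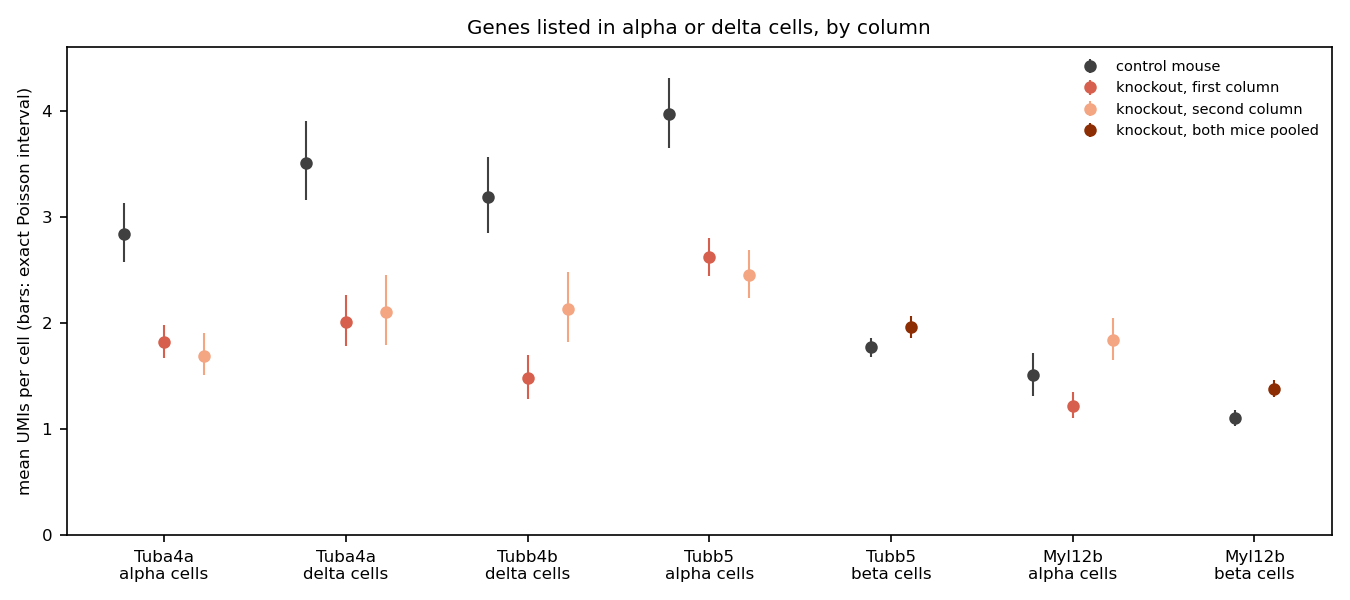
Mean UMIs per cell (y axis) by gene and cell type, 1 point per deposited column, with exact 95% Poisson intervals that cover counting error only. For Tuba4a, Tubb4b and Tubb5 in alpha or delta cells both knockout points lie below the control, and for Myl12b in alpha cells they lie on either side of it.

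The start regions of the 3 beta-tubulin genes that were lower in at least 1 cell type are shown to compare their promoters, since genes of 1 protein family stood at different ratios. The windows are the 250 bases before the start site, less any base inside an annotated exon, from RefSeq (GRCm38.p6), on the minus strand: chr13:34078009-34078258 for Tubb2a, chr2:25224703-25224952 for Tubb4b and chr17:35838307-35838551 for Tubb5. Capitals mark CCAAT on either strand and TATAAA on either strand.
Tubb2a: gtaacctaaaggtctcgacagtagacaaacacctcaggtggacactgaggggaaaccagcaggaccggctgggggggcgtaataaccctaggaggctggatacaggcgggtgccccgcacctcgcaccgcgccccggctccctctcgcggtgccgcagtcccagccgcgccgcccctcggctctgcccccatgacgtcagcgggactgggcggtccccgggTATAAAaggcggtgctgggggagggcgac
Tubb4b: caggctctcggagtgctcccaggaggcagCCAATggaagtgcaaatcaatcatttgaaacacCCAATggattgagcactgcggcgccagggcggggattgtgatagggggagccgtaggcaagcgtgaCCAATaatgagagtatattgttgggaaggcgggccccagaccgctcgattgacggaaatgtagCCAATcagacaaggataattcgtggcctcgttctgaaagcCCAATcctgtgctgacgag
Tubb5: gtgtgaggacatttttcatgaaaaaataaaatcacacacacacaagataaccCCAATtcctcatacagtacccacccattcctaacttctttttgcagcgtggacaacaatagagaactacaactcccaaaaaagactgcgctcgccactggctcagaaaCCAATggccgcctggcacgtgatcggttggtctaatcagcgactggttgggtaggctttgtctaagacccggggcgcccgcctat
Tubb4b held 5 CCAAT matches, Tubb5 held 2, and Tubb2a held none but had a TATAAA match. Among the 32851 promoter windows of the same 250 bases, 33.8% held CCAAT, 12.4% TATAAA and 0.213% at least 5 CCAAT matches. Of the 58 members matched to a window, 19 had CCAAT in at least 1 of their windows (32.8%, against 37.5% of all genes counted the same way). GGGCGG was found for 38 (65.5%, against 35.4%) and TATAAA for 3 (5.17%, against 14.3%). All genes here include those not listed in these cells, and no share was computed for listed genes alone. None of the 58 had TGACGTGG, an element bound in the unfolded protein response, or the longer ER stress element (both strands searched), which 0.603% and 0.13% of all genes had. A match is a description of the letters only.

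All 23 kinesin genes listed in beta cells had more UMIs in the knockout, 13 by at least 1.5-fold (56.5%, against 45.7% of all listed genes, of which 95.0% were higher), with a median log2 ratio of 0.64 (0.10 relative to the table median). Most of the 23 stood under 0.3 UMIs per control cell. All listed genes had median ratios of 2.37 under 0.1 and 1.5 from 0.1 to 0.3 UMIs per control cell. The 23 include Kif1bp, whose product binds kinesins and is not a motor. Kinesin-1 is the motor best known for carrying insulin granules, built from Kif5 heavy chains and Klc light chains. Its main heavy chain gene, Kif5b, hardly differed as deposited, at 3.83 UMIs in control and 4.05 in knockout cells (1.06 [1.01 to 1.11]). Relative to the table median the log2 ratio of Kif5b was -0.46, and its q-value was 1.01e-12 in the authors' deposited table. Kif5c, a heavy chain typical of neurons, went from 0.580 to 0.94 (1.62 [1.44 to 1.82]). The light chains Klc1 and Klc2 stood at 1.32 [1.15 to 1.52] and 1.37 [1.19 to 1.58], with Klc3 and Klc4 at 1.71 [1.43 to 2.04] and 1.6 [1.21 to 2.13]. The heavy chain ratios therefore ranged more widely than those of the light chains, with intervals for Kif5b and Kif5c that did not overlap.

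Kinesin-3 motors carry dense-core granules and synaptic vesicle precursors. Kif1a, its neuronal and endocrine member, went from 0.988 to 1.23 UMIs per cell (1.25 [1.13 to 1.37]) and Kif1b from 0.667 to 0.817 (1.23 [1.09 to 1.37]). Kif1c and Kif13a, at 1.63 [1.30 to 2.07] and 2.31 [1.52 to 3.60], were the higher ratios of this family, and Kif16b, a motor of early endosomes, had an interval that included 1 (1.25 [0.987 to 1.59]). The 6 annotated genes counted here as kinesin-3 by name (Kif1a, Kif1b, Kif1c, Kif13a, Kif13b and Kif16b) were all listed. Kinesin-2, which drives transport into cilia, was listed with all 4 annotated genes: Kif3a stood at 1.73 [1.17 to 2.58], Kif3b at 1.27 [1.09 to 1.48], Kif3c at 1.58 [1.09 to 2.29] and Kif17 at 5.59 [1.90 to 22.3]. The Kif17 ratio, the highest of all members, rests on 4 control and 22 knockout UMIs.

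Kif21a, which slows microtubule growth at the cell cortex, had many UMIs for a motor gene: it went from 1.81 to 3.05 UMIs per cell (1.68 [1.58 to 1.80]). It had the lowest authors' q-value of the kinesins, 1.04e-39 in the authors' deposited table. Kif2a, which takes microtubule ends apart, was at 1.56 [1.31 to 1.86], and Kif12, a kinesin of epithelial tissues, at 1.31 [1.21 to 1.43]. Of the kinesins that act in cell division, Kif22 was at 1.52 [1.31 to 1.78], while Kif15 had 0 control UMIs and 8 knockout UMIs, which is at least 2.71-fold higher if 3 UMIs are allowed for the whole control group; its exact interval starts at 1.74. Kif24, a kinesin of centrioles, was at 1.79 [1.07 to 3.05]. Of the 17 genes of the proliferation list, Pcna was the 1 listed, at 1.32 [1.07 to 1.64], and the mitotic markers Mki67 and Top2a were not analysed here.

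Dynein and dynactin had the lowest median ratio of the 4 groups, although their summed UMIs (1.19 [1.16 to 1.21]) differed by more than those of tubulins (1.02 [0.97 to 1.07]). Of 17 genes 16 were higher, 3 by at least 1.5-fold (17.6%, against 45.7% of all listed genes, of which 95.0% were higher). The median log2 ratio was 0.35, or -0.19 relative to the table median, under which 14 of the 17 lay. Most of the 17 stood at 0.3 UMIs per control cell or more. Of all listed genes, 24.3% passed that fold from 0.3 to 1 UMIs, 13.1% from 1 to 3 and 10.8% above 3. Their median log2 ratios there were 0.41, 0.26 and 0.17. The heavy chain of cytoplasmic dynein-1, Dync1h1, which holds the motor itself, went from 1.24 to 1.37 UMIs per cell (1.10 [1.01 to 1.20]). The intermediate chain Dync1i2 and the light intermediate chains Dync1li1 and Dync1li2, which link motor to cargo, lay between 1.26 and 1.34. All 6 dynactin genes were listed. Dctn1, the p150 subunit that grips the microtubule, was at 1.12 [0.978 to 1.28] and Dctn3 at 0.984 [0.922 to 1.05], both with intervals that included 1, and Dctn2, Dctn4, Dctn5 and Dctn6 lay between 1.28 and 1.35. None of the dynein-1 core or dynactin genes reached a fold of 1.5 in either direction.

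The dynein light chains ranged more widely. Dynll1, the LC8 light chain that also binds many other proteins, went from 2.96 to 4.00 UMIs per cell (1.35 [1.28 to 1.43]), whereas its close relative Dynll2 went from 4.27 to 4.49 (1.05 [1.00 to 1.10]). The intervals of this pair did not overlap, and the genes share no 30-base word. Dynlrb1 was at 1.12 [1.06 to 1.19] and Dynlt3 at 1.20 [1.10 to 1.31]. Dynlt1a and Dynlt1f stood at 2.05 [1.67 to 2.53] and 1.61 [1.39 to 1.86]. Dynlt1f is uncertain as a separate value, since 91.1% of the 30-base words in its last 300 bases also occur in another copy, Dynlt1c. The longest Dynlt1a transcript shares 61.6% of its words with Dynlt1c as a whole but 0 in the last 300 bases. Yet 80.1% of the words in the last 300 bases of Dynlt1f occur in Dynlt1a, so the Dynlt1a value may not be separate either. Dync2li1, of the dynein-2 motor of cilia, was the highest of the group at 2.20 [1.75 to 2.79], on 109 control and 236 knockout UMIs.

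For some of these genes the authors' call did not follow the UMIs per cell. Dctn3 had a q-value of 2.33e-06 and Dynll2 one of 3.92e-15 in the authors' deposited table, at ratios of 0.984 and 1.05. How the authors scaled cells before their test is not given in the sources used here.

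**Figure D4:**
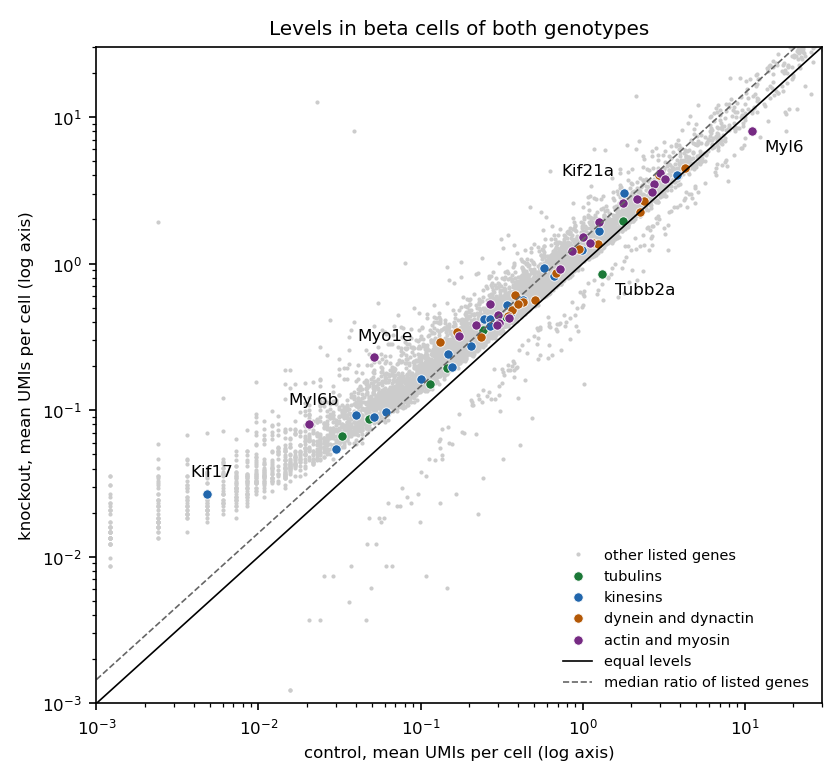
Mean UMIs per cell in control (x axis) and knockout (y axis) beta cells, both on log axes, for listed genes with UMIs in both genotypes within the plotted range; members are coloured by group, the solid line is equality and the dashed line the median ratio of listed genes. Myl6 and Tubb2a lie below equality, and Kif17, Myl6b and Myo1e lie above the dashed line among rare genes.

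Among actin and myosin genes the outstanding value was Myl6, the essential light chain of non-muscle and smooth muscle myosin II. It went from 11.1 UMIs in control to 7.97 in knockout cells (0.719 [0.697 to 0.742]), and 2.75% of all listed genes had a lower ratio. It missed the fold of 1.5 as deposited and passed it after centring (log2 -1.02). Its q-value was 3.71e-04 in the authors' deposited table. Myl6 was lower under every scaling tried, from -1.02 to -0.13 on the log2 scale, as was Tubb2a, from -1.18 to -0.29. The gene next to it, Myl6b, a light chain of the same kind, went the other way, from 0.0205 to 0.0810 UMIs per cell (3.95 [2.29 to 7.18]) on 17 and 66 UMIs. On mm10 chromosome 10, Myl6 spans 128490860 to 128494145 and Myl6b 128494157 to 128498685, both on the minus strand.

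The regulatory light chains of myosin II were higher in beta cells: Myl12a went from 1.00 to 1.51 UMIs per cell (1.5 [1.38 to 1.64]) and Myl12b from 1.10 to 1.38 (1.25 [1.14 to 1.36]). The 4 light chains summed to 13.2 UMIs in control and 10.9 in knockout cells (0.828 [0.805 to 0.852]), but without Myl6 to 2.13 and 2.97 (1.39 [1.31 to 1.48]), so 1 gene set the sign of the sum. In alpha cells Myl12b stood at 1.51 UMIs per control cell and at 1.22 and 1.84 in the knockout columns. These lie on either side of the control, with ratios of 0.812 [0.684 to 0.965] and 1.22 [1.03 to 1.46], although the gene was listed there with a q-value of 0.00501 in the authors' deposited table.

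Of the 10 unconventional myosins, 9 were higher and 1 lower, in a table where 95.0% of listed genes were higher. Myo5a, which tethers insulin granules to cortical actin, went from 0.304 to 0.393 UMIs per cell (1.29 [1.09 to 1.53]), and its epithelial relative Myo5b, a partner of recycling endosomes, from 0.174 to 0.319 (1.84 [1.49 to 2.27]). The class I myosins link actin to membranes: Myo1e went from 0.0519 to 0.229 (4.42 [3.16 to 6.31]) and Myo1d from 0.22 to 0.379 (1.73 [1.43 to 2.09]). Both lay above the median ratio of listed genes. Myo6, which moves towards the minus end of actin, Myo10 of filopodia and Myo18a stood at 1.27, 1.28 and 1.48. The extremes rest on few UMIs: Myo7b of microvilli had 0 control and 10 knockout UMIs (at least 3.39-fold higher, with an exact interval from 2.28), and Myo3a had 6 and 0 (at least 1.97-fold lower, with an exact interval of the ratio up to 0.864), both folds with 3 UMIs allowed for the empty group.

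The Arp2/3 complex nucleates branched actin. Its subunits differed, and the intervals of Arpc2 and Arpc4 did not overlap. The 6 listed ranged from 1.14 [1.08 to 1.21] for Arpc2, which went from 2.69 to 3.07 UMIs per cell, to 1.41 [1.28 to 1.56] for Arpc4. Arpc5 went from 2.98 to 4.18 (1.4 [1.33 to 1.47]) and its alternative subunit Arpc5l from 3.21 to 3.76 (1.17 [1.11 to 1.23]), while the alternatives Arpc1a and Arpc1b were alike at 1.28 and 1.27. None reached a fold of 1.5, by which 45.7% of listed genes were higher, and all 6 lay under the table median. The 6 stood between 0.858 and 3.21 UMIs per control cell. Of listed genes from 1 to 3 UMIs, 13.1% were higher by that fold, and their median ratio was 1.20. Capping protein, which closes the growing end of actin filaments, was at 1.45 [1.36 to 1.56] for Capzb, 1.52 [1.4 to 1.64] for Capza2 and 1.21 [1.03 to 1.42] for Capza1.

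Related genes outside the name rule gave a frame for these values. The genes of actin itself differed by more than nearly all of its motors: Actb went from 8.11 to 18.5 UMIs per cell in beta cells (2.28 [2.22 to 2.35]) and Actg1 from 9.42 to 18.5 (1.96 [1.91 to 2.02]). The knockout values of these 2 genes are identical in the deposited beta-cell table, and whether both are right could not be checked. In delta cells Actb stood at 10.2, 15.3 and 15.6. All 23 listed genes of the actin core and its regulators were higher (8 by at least 1.5-fold, median log2 ratio 0.42), in a table where 95.0% were higher and 45.7% by that fold. They ranged from Actb and the filament-severing Cfl2, at 1.98 [1.80 to 2.17], down to Pfn1, which feeds actin monomers to filaments, at 1.07 [1.03 to 1.10] and Enah at 1.07 [0.963 to 1.18]. All 7 myosin heavy chain, tropomyosin and caldesmon genes were higher, with Tpm1 and Cald1 highest at 2.74 [2.44 to 3.07] and 1.82 [1.55 to 2.13], and Myh9 and Tpm4 lowest at 1.29 and 1.30.

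Of 17 listed microtubule-associated proteins 16 were higher (median 0.45), among them Mapt, which encodes tau, at 3.08 [2.44 to 3.93] and Map7d2 at 3.20 [2.34 to 4.43], while Dclk1 was lower at 0.369 [0.246 to 0.542] and Mapre2 was at 1.11. All 21 tubulin folding and modification genes were higher (median 0.38), from Cct7 and Cct8 at 1.04 and 1.08 to Cct4 and Cct5 at 1.65 and 1.66, all 4 of the chaperonin that folds actin and tubulin. The 11 listed dynein regulators and adaptors were all higher (median 0.35; Bicd2 at 1.6 [1.28 to 2.00], Ndel1 at 1.08 [0.972 to 1.20], Spag9 at 1.11, and Rilp with 0 control UMIs), as were 14 septins, intermediate filament and spectrin genes (median 0.45; Krt8 at 2.31 [2.19 to 2.43], Vim at 3.21 [1.69 to 6.53] on low levels, Lmna at 1.01 and Dst at 1.08). Krt8 stood in alpha cells at 3.42 UMIs per control cell and 2.50 and 3.05 in the knockout columns. The granule motor adaptors were the exception, with 2 of 5 higher and a median of -0.02. Mlph, which joins Rab27a to Myo5a, went from 0.0965 to 0.0270 (0.280 [0.166 to 0.453]). Arl8b was at 0.947 [0.879 to 1.02] and Madd at 0.984 [0.909 to 1.07], and neither interval excluded equality. Arl8a was at 1.24 [1.13 to 1.35] and Rph3al at 1.57 [1.44 to 1.71]. Each of these medians lay below the 0.54 of all listed genes, and relative to it all would be negative. The counts of higher genes stand beside 95.0% of all listed genes.

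**Figure D5:**
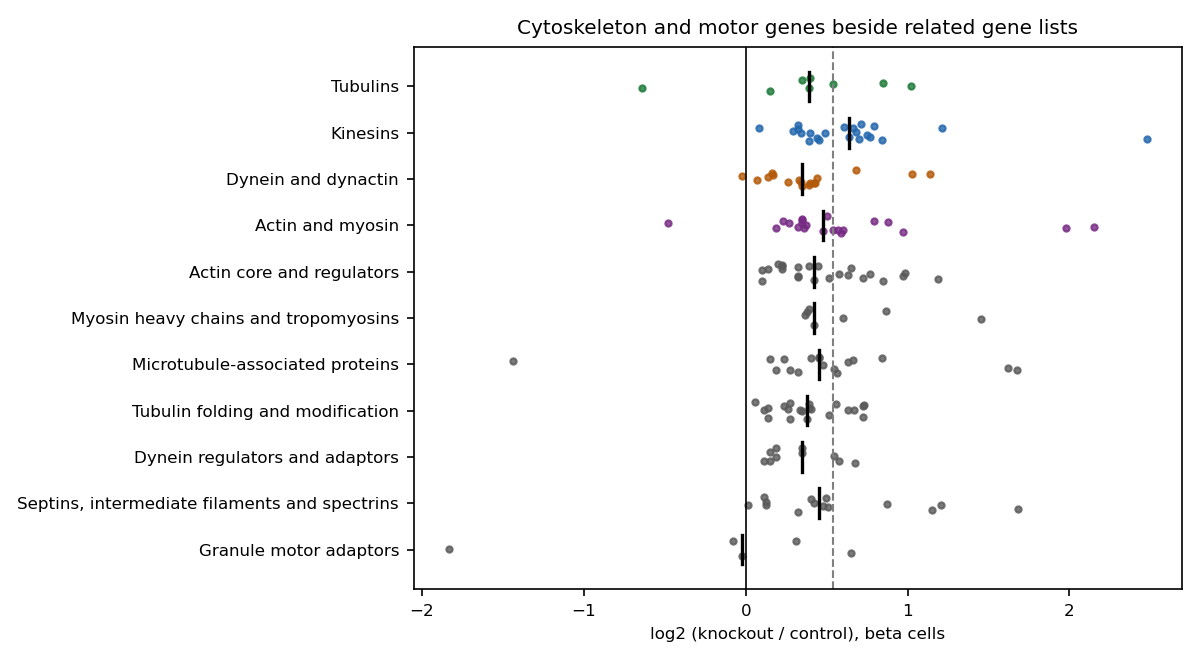
Log2 ratio of knockout over control in beta cells for each gene with UMIs in both genotypes (points), by group of members (coloured) and by related gene list (grey), with the median of each (black bar, genes at 0 placed at their bound), equality (solid line) and the median of all listed genes (dashed line). Kinesins are the 1 set whose median, 0.64, exceeds the dashed line, and granule motor adaptors the 1 set with a median under 0. Most kinesins stood under 0.3 UMIs per control cell. All listed genes had median log2 ratios of 1.25 under 0.1 and 0.59 from 0.1 to 0.3 UMIs.

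Transcripts of other cell types differed between the same beta-cell columns, and their part in the cytoskeleton values was not tested. Listed alpha-cell markers summed to 49.3 UMIs in control and 114 in knockout cells (5 of 8 listed, all higher), delta-cell markers to 39.6 and 64.6 (3 of 5), red-cell markers to 0.0639 and 22.6 (3 of 5) and duct markers to 38.0 and 68.8 (4 of 8). Mesenchyme and smooth muscle markers, whose cells are rich in myosin light chains, summed to 0.0434 and 0.189 (4 of 8, with Col1a1 at 0 in control), and acinar Reg3b stood at 0 and 0.114. Markers of pancreatic polypeptide cells summed to 21.7 and 107 (2 of 2), of endothelium to 0.192 and 0.363 (2 of 6, with Pecam1 higher and Cdh5 lower), of immune cells to 0.641 and 0.564 (4 of 9, with Cd74, Cd79a and Lyz2 higher and only Cd68 lower) and of Schwann cells and neurons to 0.743 and 1.53 (2 of 5). The beta-cell markers themselves were all lower (6 of 9 listed, 22059 and 13364), and the listed total was 31552 UMIs in a control and 24796 in a knockout beta cell.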

How the data were processed

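Islet cells of 1 control and 2 knockout mice were profiled by droplet RNA sequencing, and the submitters' processing notes name Cell Ranger 3.0.0 and build mm10. The treatment of doublets and free RNA, the filters on cells, the assignment to types and the test used were not given in the sources used here. The authors deposited, per cell type, signal values that are mean UMIs per cell, not scaled for depth: in every column, at least 99.99% of values times the cell number were whole within 0.001. The authors also deposited p-values and q-values, which are quoted as theirs. Cell numbers were found as those that make the values whole. The beta-cell table pools both knockout mice. UMI numbers are that product, rounded.

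Ratios were computed in Python 3.11.15 (SciPy 1.17.1) with no pseudocount; a group with no UMI was set to 3 UMIs over its cells. The 2 knockout columns of alpha and delta cells were averaged. Intervals are Clopper-Pearson, taken on the knockout share of a gene's UMIs; the scripts were tested on simulated data. Positions are from GENCODE M21 (mm10). Symbols that had become dates were looked up again by Ensembl identifier. The members and lists were chosen with earlier results of these data known. Genes named were all members in alpha and delta cells, the 4 highest, 4 lowest and 3 most abundant per group in beta cells, 23 genes fixed by name and 2 from each end of each list. Actg1 and the other members and markers named outside this rule were chosen after their values were seen. Alternatives were a fold of 2, at least 30 UMIs, a pseudocount, 3 scalings, leaving out either knockout column, and members without gamma-tubulin complex proteins and Kif1bp. A member and a related list are not reported singly here; the member is counted in the totals.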

Additional observations from a re-analysis of the deposited data

Results flagged for a closer look

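Tubb5 had opposite directions in 2 cell types as deposited. Its log2 ratio was -0.65 in alpha cells, with both knockout columns below the control, and 0.15 in beta cells, where both knockout mice are pooled in 1 column. The difference was not tested, the 2 comparisons share the control mouse, and the beta-cell direction turned after centring on the table median (-0.40). Centred on the median of its own table, the alpha-cell value was -0.36, so both were then negative.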

How the results depend on the processing

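The shift of all listed genes decides most counts. The median log2 ratio of all listed beta-cell genes was 0.54 as deposited, 0.89 after scaling to the listed total and 0.27 after leaving Ins1, Ins2 and Iapp out of that total, and of the 71 members 67, 68 and 58 were higher; after centring on the table median 27 were. The 26 higher members past the fold of 1.5 became 9 at a fold of 2, 12 with a pseudocount of 0.0519, 7 after centring, 59 scaled to the listed total and 11 scaled without Ins1, Ins2 and Iapp. The 2 lower members became 0 at a fold of 2 and 1 each with at least 30 UMIs, with the pseudocount and scaled to the listed total. Median log2 ratios of tubulins, kinesins, dynein and dynactin, and actin and myosin (0.39, 0.64, 0.35 and 0.48) became 0.31, 0.41, 0.32 and 0.35 with the pseudocount, -0.15, 0.10, -0.19 and -0.06 after centring, 0.74, 0.99, 0.70 and 0.83 scaled to the listed total, and 0.13, 0.37, 0.08 and 0.22 scaled without Ins1, Ins2 and Iapp. With at least 30 UMIs the kinesin median was 0.61. These changes follow from the construction of each setting. In alpha cells the 2 lower tubulins became 0 at a fold of 2, 0 after centring, 0 scaled to the listed total and 1 scaled without Ins1, Ins2 and Iapp. In delta cells the 2 lower tubulins became 0 at a fold of 2 and 0 scaled to the listed total, and leaving out either knockout column gave 1 to 2, with Tubb4b lost without the first. Tuba4a, Tubb4b and Tubb5 kept values below 0 in alpha and delta cells under each of these settings.

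No paired analysis was possible because the labels give the mice no shared replicate numbers and there was 1 control mouse. In beta cells the spread between knockout mice could not be seen, and intervals cover counting error only.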
